A study of Sus scrofa with 33 samples.

Results

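The genes described here encode the subunits and regulators of the proteasome (PSM genes) and the ubiquitin-conjugating enzymes (UBE2 genes), measured in the pituitary gland of pigs. Members were all genes whose name on the array starts with PSMA, PSMB, PSMC, PSMD, PSME, PSMF or UBE2, with UBE2C left out. That gave 70 genes with 163 probes, of 45222 gene names and 60305 probes on the array. Each gene was represented by the probe with the highest mean in the deposited log2 table, and 69 genes had such a probe. PSMD5, an assembly chaperone, had 1 probe, which was in neither that table nor the tested set, and is given no value. All 69 chosen probes passed the filter on dim probes, and 68 of them were well above background on all 33 arrays (UBE2Z on 12).

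The animals were castrated male growing pigs of the Large White (LW) breed, the Creole (CR) breed and their F1 cross, slaughtered under thermoneutral conditions (TN, 24 °C in the labels) or after heat (heat stress, HS, 30 °C in the labels, whereas the growth protocol gives 32 °C for 5 days). There were 5 LW TN, 6 LW HS, 5 CR TN, 6 CR HS, 6 F1 TN and 5 F1 HS arrays, each of 1 animal. All TN pigs were slaughtered before the room was warmed and all HS pigs after it, so that slaughter day and age cannot be told apart from temperature, and littermates and pen mates were not identified in the labels used here. The title of array LW HS 3 names Large White and its breed field names Creole, and it was analysed by its title. Pituitary hormone genes were bright on every array (mean log2 intensity 19.02 for GH1, 19.01 for POMC and 18.87 for PRL), and so were AVP (16.99) and OXT (15.67), hormone genes that mark the posterior lobe, whereas the methods describe the anterior lobe. Over all 47083 probes tested, 9 passed the adjusted threshold between HS and TN, 3074 between LW and CR, 674 between F1 and LW and 3137 between F1 and CR, and 6117 differed between the 5 slides that carried the arrays. On leaving out single arrays these counts ran from 6 to 38, 2583 to 3536, 350 to 1136 and 2037 to 4182 (38 without F1 TN 3, 350 without F1 HS 1, 1136 without F1 HS 3 and 2037 without F1 HS 2). In bulk tissue, fewer cells of a type and less RNA per cell cannot be told apart.

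The 26S proteasome is the cell's main protease for damaged, misfolded and short-lived regulatory proteins. Its 20S core is a barrel of alpha rings that gate the entry and beta rings that hold the proteolytic sites. Its 19S cap recognises ubiquitin chains with non-ATPase subunits and unfolds the substrate with a ring of ATPases. Ubiquitin is passed from an activating enzyme (E1) to a conjugating enzyme (E2, the UBE2 family) and, with a ligase (E3), to the substrate. Interferon exchanges catalytic beta subunits for inducible ones (PSMB8, PSMB9 and PSMB10) and raises the PA28 activator (PSME1 and PSME2). Secretory endocrine cells such as those of the anterior pituitary depend on this system for the disposal of misfolded prohormones drawn back from the endoplasmic reticulum.

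Several members had more than 1 probe, and probes of the same gene did not always move together. The sequences of the 13 tested probes of the 6 members with a called breed difference are therefore shown, to make clear that the probes of a gene differ in sequence. All were 60 bases long in the scanner files. The last 30 bases are given 5′ to 3′ as listed, with the hexamer AATAAA, the signal found near the end of many transcripts, in capitals, and probe 1 is the chosen probe.
PSMB3 probe 1: aggcccgaatggactagcggttcccagagc
PSMB3 probe 2: tataacggaggggccgtcatggccatgaag
PSMC1 probe 1: ctcttcccAATAAAatgtgctctttctcaa
PSMC1 probe 2: agagaacgtaggatgaaagtaacaatgaag
PSMC1 probe 3: ccaaacctcggccactttcttgagagtcgt
PSMC1 probe 4: ctgaggggctctatctgtagtggaccacag
PSMD9 probe 1: tatgattttattcttatagaaattttggtt
PSMD9 probe 2: caatgtttgctgtttaaattgttctaattc
UBE2CBP probe 1: atatattctctaacagaacagttaacttga
UBE2E2 probe 1: ctcAATAAAtcactgtggctgataacctca
UBE2J1 probe 1: gcacatcttcggttcggatctgctgtggct
UBE2J1 probe 2: ccaatgagtacatatttgactttgagatat
UBE2J1 probe 3: tttacaggatgatatacctacaacattcca
Probes of the same gene shared a run of at most 9 bases. Of these probes, the chosen ones of PSMC1 and UBE2E2 held AATAAA on the listed strand. Probe 1 of PSMD9 held it on the other strand. Among the chosen probes of all 69 members, 6 (8.7%) held it on the listed strand, against 11.1% of all probes tested. Over both strands the shares were 13% and 15.0%. Where these stretches lie in the genome or transcript was not analysed here.

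No member passed the test between HS and TN in the pituitary. The constitutive subunits of the 26S proteasome were nonetheless mostly a little higher under HS, with 26 of 29 fitted differences above 0 and a median of 0.0465 on the log2 scale (27 of 29 and 0.0785 with the processed signal). Of all 69 members, 55 had a difference above 0, with a median of 0.03. Over all named genes on the array (9681 genes, 1 probe each) 5727 lay above 0, with a median of 0.02, and over all probes tested the median was 0.01. The 29 subunits vary together between arrays, as described further on, so that their directions are not separate observations. With limma, 0 of 69 members were called at an adjusted p under 0.05, against 0.0191% of all probes tested, and 5 members (7.25%) had an unadjusted p under 0.05, all higher under HS, against 8.68% of all probes.

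The 5 members with the smallest p in this comparison were PSMC1, PSMA2, UBE2G2, UBE2V1 and PSMB4. PSMA2, a subunit of the alpha ring, ranged from 9.25 to 9.65 with a median of 9.42 over the 16 TN arrays and from 9.34 to 9.73 with a median of 9.54 over the 17 HS arrays. The groups overlapped over most of their range, and 14 of 17 HS arrays lay above the TN mean of their own breed. Its difference was 0.09 ± 0.04 (SE) on the log2 scale (limma adjusted p = 0.474). PSMC1, the ATPase of the cap that takes part in opening the gate of the core, ranged from 13.66 to 14.03 (median 13.89) under TN and from 13.70 to 14.20 (median 14.02) under HS. It differed by 0.10 ± 0.04 (limma adjusted p = 0.467), with 13 of 17 HS arrays above the TN mean of their breed. UBE2G2, an E2 of the degradation of proteins from the endoplasmic reticulum, differed by 0.15 ± 0.07 (limma adjusted p = 0.505, 12 of 17 arrays). UBE2V1, an inactive E2 variant that directs the linkage of ubiquitin chains with its partner UBE2N, differed by 0.12 ± 0.06 (limma adjusted p = 0.529), and its second probe by 0.11. The beta ring subunit PSMB4 differed by 0.07 ± 0.03 (limma adjusted p = 0.575). Under every alternative the 5 differences stayed above 0 and none was called, though that of PSMC1 ran from 0.0503 to 0.1312.

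**Figure D1:**
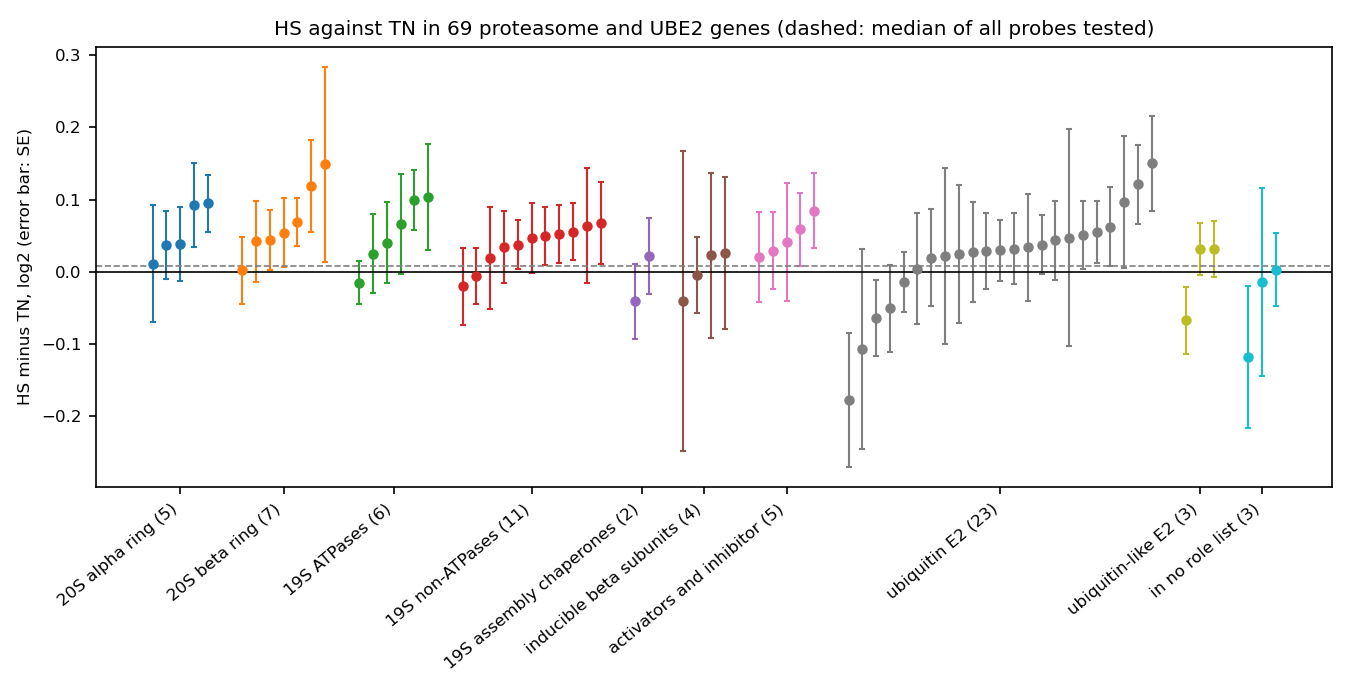
HS minus TN on the log2 scale for the 69 members (points, with SE as error bars), grouped by role, from the fit with breed and temperature. Among the constitutive 26S subunits 26 of 29 points lie above 0, and no member passed the adjusted threshold. The dashed line is the median of all probes tested, 0.0078.

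By role, all 5 measured subunits of the alpha ring (median 0.04) and all 7 of the constitutive beta ring (median 0.05) had a difference above 0. So did 5 of 6 cap ATPases (median 0.05) and 9 of 11 non-ATPase subunits (median 0.05), and no subunit passed the test. The lists held 8 alpha ring genes and 28 ubiquitin E2 genes, of which 5 and 23 were measured. All 5 activators and inhibitors (PSME1 to PSME4 and PSMF1) lay between 0.02 and 0.08. Of the 23 ubiquitin E2 genes 18 lay above 0 (median 0.0296, which ran from 0.0123 without F1 HS 3 to 0.0518 without F1 HS 5), with a range from −0.18 for UBE2H to 0.15 for UBE2G2. The inducible beta subunits, listed together with the thymus subunit PSMB11, lay on both sides of 0, from −0.04 for PSMB8 to 0.03 for PSMB9. The 95% intervals of the 69 differences reached a median of 0.109 log2 units to either side, lay within 0.5 of 0 for all 69 members and within 0.25 for 57. Other genes of the pathway (assembly factors, ubiquitin genes, E1 enzymes, shuttle factors) had 15 of 23 differences above 0 with a median of 0.01 and no call. Beside these values, the erythroid marker HBB fell by 1.15 between TN and HS (limma adjusted p = 0.0307), while ALAS2, the other erythroid marker measured, differed by −0.03. All 6 leukocyte markers measured were below 0, from −0.14 to −0.02, and none was called. Their part in the result was not tested.

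Split by breed, the median HS minus TN difference of the 26S subunits was 0.09 in Creole, 0.04 in F1 and 0.00 in Large White pigs, and no difference between breeds in this response was called. The F1 median of 0.0435 was 0.0925 without F1 HS 5, beside 0.0914 in Creole, 0.0287 without F1 HS 3, 0.0773 without F1 HS 4, 0.0702 with array weights and 0.0235 with slide as a fixed block, and on leaving out single arrays the Large White median lay between −0.04 and 0.04. With the processed signal the medians were 0.14 in Creole, 0.08 in F1 and 0.06 in Large White, all above 0. The mean log2 intensity of the 29 subunits was 11.854 ± 0.019 (SD, n = 5) on CR TN arrays and 11.959 ± 0.046 (SD, n = 6) on CR HS arrays. Every CR HS array (11.886 to 12.007) lay above every CR TN array (11.826 to 11.879). That separation holds by title only. LW HS 3, whose breed field names Creole, had a mean of 11.826, at the low end of the CR TN arrays. With LW HS 3 taken as Creole, the median difference of the 26S subunits within Creole was 0.0735. In F1 pigs the means were 11.889 ± 0.022 (SD, n = 6) under TN and 11.944 ± 0.1 (SD, n = 5) under HS, with overlap. In Large White pigs they were 11.853 ± 0.104 (SD, n = 5) and 11.845 ± 0.131 (SD, n = 6), with wide overlap. Since these averages run over chosen genes they are descriptions with no test. Arrays of slide 1 were all high (11.999 to 12.018), and that slide held 1 TN array, from LW, and 2 HS arrays, from CR and F1.

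**Figure D2:**
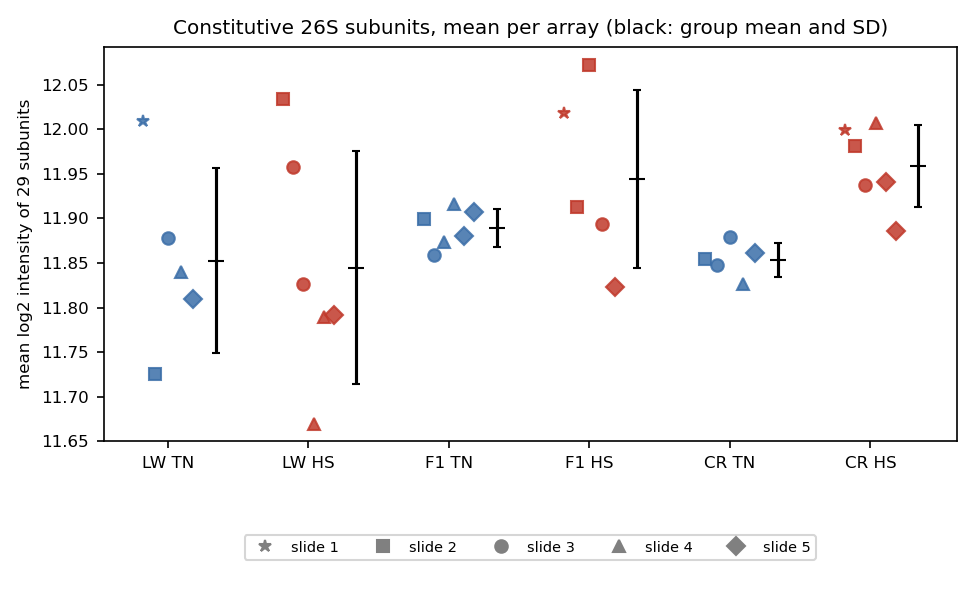
Mean log2 intensity of the 29 constitutive 26S subunits on each of the 33 arrays (blue TN, red HS), with the slide as the marker shape and the group mean and SD in black. By title, the CR HS arrays lie above the CR TN arrays, and the LW groups overlap. LW HS 3, whose breed field names Creole, has a mean of 11.826.

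Gene by gene within Creole, 25 of 29 subunits had an HS minus TN difference above 0 and 7 had an unadjusted p under 0.05, all higher (PSMD7, PSMA2, PSMB1, PSMD1, PSMD8, PSMC5 and PSMB2). Within F1, 23 of 29 lay above 0, and within Large White 15 of 29. With slide as a fixed block the counts above 0 were 24 of 29 in Creole, 17 of 29 in F1 and 18 of 29 in Large White. No member was called in any breed, where limma called 0% of all probes tested within Large White, 0% within Creole and 0% within F1. An unadjusted p under 0.05 was reached by 2, 7 and 2 of the 69 members in Large White, Creole and F1, against 6.76%, 5.88% and 5.71% of all probes. The limma F test of the interaction between breed and temperature also called 0 of 69 members and 0% of all probes tested.

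The member with the smallest interaction p was PSMD7, a scaffold subunit of the lid that pairs with the deubiquitinase PSMD14 (adjusted p = 0.925 in the limma fit). PSMD7 and PSMD2 are described because of their small interaction p, so they were chosen after their values were seen. The 5 CR TN arrays had PSMD7 values of 11.67, 11.32, 11.75, 11.36 and 11.76, and the 6 CR HS arrays ranged from 11.75 to 12.01. CR TN 3 and CR TN 5 reached the lowest CR HS value, and the other CR TN arrays lay below all CR HS arrays. The LW TN arrays had 11.69, 11.56, 11.85, 11.79 and 11.68, against 10.997 to 11.877 for the 6 LW HS arrays, of which LW HS 3 and LW HS 4 were the lowest at 11.104 and 10.997. The differences were 0.34 ± 0.12 in Creole, 0.10 ± 0.12 in F1 and −0.24 ± 0.12 in Large White (SE). PSMD2, a large cap subunit that docks ubiquitin shuttles, had differences of 0.11 in Creole, 0.04 in F1 and −0.21 in Large White (± 0.09 SE each), and its interaction had the same adjusted p in the limma fit. LW HS 3, whose breed field names Creole, lay below every CR TN array for both genes (11.104 for PSMD7 and 13.237 for PSMD2). Its part in the differences within Creole and Large White was not tested.

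Between Large White and Creole, 4 of 69 members passed the test (5.80%), against 6.53% of all probes tested, so that the share of members called was near that of the array. UBE2CBP and PSMD9 were higher and PSMB3 and PSMC1 lower in Large White. UBE2CBP, the earlier name of the E3 ligase UBE3D and thus no E2 itself, had the largest difference. It ranged from 7.38 to 7.95 with a median of 7.62 over the 11 LW arrays, from 6.55 to 7.69 with a median of 7.08 over the 11 CR arrays, and from 6.83 to 7.86 with a median of 7.50 over the 11 F1 arrays. The breeds overlapped, but 8 of the 11 CR arrays lay below every LW array. The difference between LW and CR was 0.56 ± 0.12 on the log2 scale (limma adjusted p = 0.00266) and between F1 and CR 0.39 ± 0.12 (limma adjusted p = 0.0415). The call against Creole in F1 was kept on leaving out 16 of the 33 arrays and lost for the other 17 (adjusted p up to 0.0884), and it was also lost with normexp, without the filter and with LW HS 3 as Creole. UBE2CBP was measured with 1 probe.

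PSMD9, a chaperone in the assembly of the cap's base, ranged from 12.01 to 12.39 (median 12.22) in Large White and from 11.77 to 12.16 (median 11.94) in Creole. Of the 11 LW arrays 8 lay above every CR array. The difference was 0.26 ± 0.06 (limma adjusted p = 0.0095), and probe 2, with a difference of 0.44 ± 0.14, had the same direction (limma adjusted p = 0.061). F1 arrays ranged from 11.71 to 12.39 with a median of 12.06. In F1 against Large White, probe 1 of PSMD9 differed by −0.16 ± 0.06 (limma adjusted p = 0.246) and probe 2 by −0.57 ± 0.14, which was called (limma adjusted p = 0.0373).

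PSMB3, a beta ring subunit without a proteolytic site, was lower in Large White on both of its probes. Probe 1 ranged from 9.37 to 10.12 (median 9.82) over the LW arrays, from 9.50 to 11.06 (median 10.45) over the CR arrays and from 9.40 to 10.73 (median 9.86) over the F1 arrays. The 7 highest CR arrays lay above every LW array, while the other 4 lay among the LW values, which makes the spread in Creole (SD 0.494) about that of F1 (SD 0.441) and wider than in Large White (SD 0.241). The differences between LW and CR were −0.53 ± 0.16 for probe 1 (limma adjusted p = 0.0449) and −0.53 ± 0.15 for probe 2 (limma adjusted p = 0.0212), and the 2 probes rose and fell together between arrays (r = 0.908 over 33 arrays, residuals from the 6 group means). Leaving out single arrays ended the call of probe 1 for 19 of 33 arrays (limma adjusted p up to 0.0886), and within slides the difference was below 0 on 4 of 5.

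PSMC1 was called lower in Large White on its brightest probe only. That probe ranged from 13.66 to 14.11 (median 13.80) in Large White and from 13.93 to 14.18 (median 14.02) in Creole, and 8 of 11 LW arrays lay below every CR array. Its difference was −0.19 ± 0.05 (limma adjusted p = 0.0204). The other 3 probes gave 0.05 ± 0.06 (probe 2), −0.08 ± 0.11 (probe 3) and 0.16 ± 0.05 (probe 4), none called, and with the mean of the 4 probes the difference was −0.01 (limma adjusted p = 0.942). Probe 4 was higher in F1 than in Creole by 0.24 ± 0.05 (limma adjusted p = 0.0045), where probe 1 differed by −0.09.

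**Figure D3:**
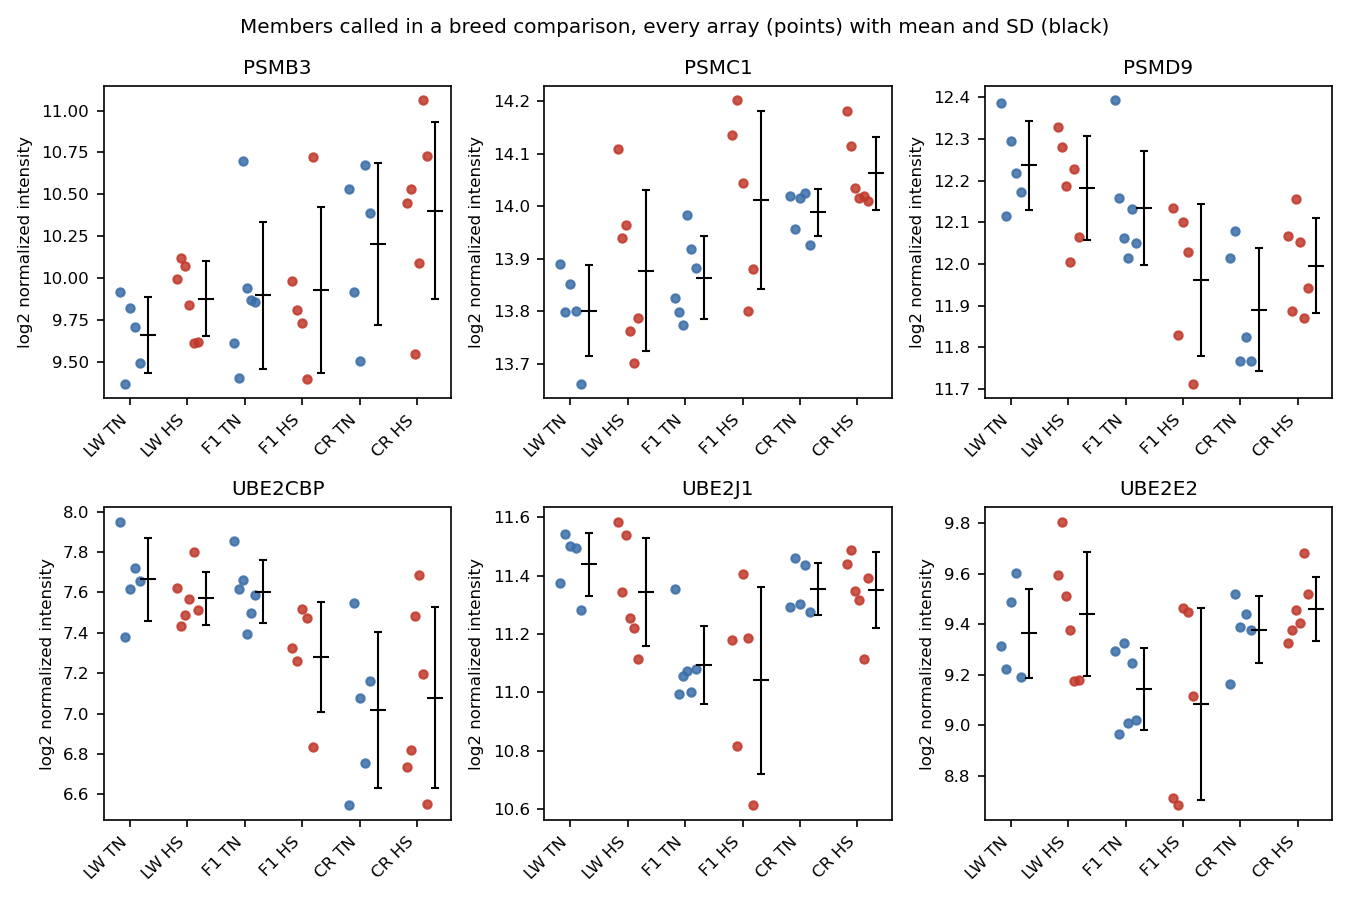
Log2 normalized intensity of the chosen probe of the 6 members called in a breed comparison, for every array (blue TN, red HS), with the mean and SD of each group in black. PSMB3 and PSMC1 are higher and PSMD9 and UBE2CBP lower on CR than on LW arrays, and most F1 arrays are lowest for UBE2J1 and UBE2E2.

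Against Large White, F1 pigs had 1 called member of 69 (1.45%), against 1.43% of all probes tested, and against Creole 3 of 69 (4.35%), against 6.66% of all probes. These comparisons share the F1 arrays. UBE2J1, the membrane-anchored E2 of the degradation of proteins from the endoplasmic reticulum, was called in both. Probe 1 ranged from 10.61 to 11.41 (median 11.07) over the F1 arrays, against 11.12 to 11.59 (median 11.37) in Large White and 11.12 to 11.49 (median 11.35) in Creole. Of the 11 F1 arrays 7 lay below every array of either parent breed. The difference was −0.32 ± 0.07 from Large White (limma adjusted p = 0.0217) and −0.29 ± 0.07 from Creole (limma adjusted p = 0.0158), and it lay below 0 within each of the 5 slides in both comparisons.

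The other probes of UBE2J1 did not show this. Probe 2 differed by 0.09 ± 0.07 from Large White and 0.17 ± 0.07 from Creole, and probe 3 by 0.07 ± 0.08 and 0.10 ± 0.08, with no call. The mean of the 3 probes differed by −0.06 from Large White (limma adjusted p = 0.802) and by −0.01 from Creole (limma adjusted p = 0.972). Probe 1 of UBE2J1 is annotated to an ovary cDNA clone in the array files and probes 2 and 3 to the UBE2J1 mRNA.

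UBE2E2, an E2 of the UBE2D and UBE2E class, was called between F1 and Creole. It ranged from 8.68 to 9.46 (median 9.11) over the F1 arrays, from 9.16 to 9.68 (median 9.41) in Creole and from 9.18 to 9.81 (median 9.38) in Large White. Of the 11 F1 arrays 6 lay below every CR array. The difference was −0.30 ± 0.09 from Creole (limma adjusted p = 0.0356) and −0.29 ± 0.09 from Large White (limma adjusted p = 0.102). Leaving out single arrays ended the call of UBE2E2 against Creole for 8 of 33 arrays (limma adjusted p up to 0.0868).

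**Figure D4:**
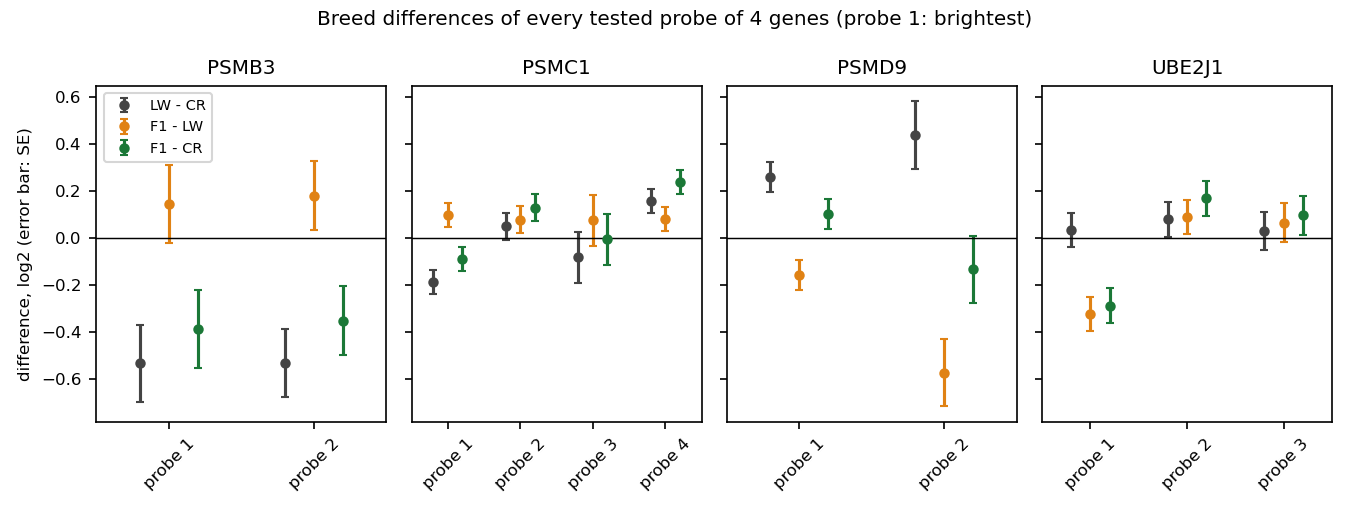
Fitted breed differences (points, with SE) of every tested probe of PSMB3, PSMC1, PSMD9 and UBE2J1, with probe 1 the chosen one. The LW minus CR differences of PSMB3 are −0.53 on both probes, whereas those of PSMC1 run from −0.19 to 0.16 and only probe 1 of UBE2J1 is lower in F1.

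Other members with low values in F1, chosen after their values were seen, did not pass the test. UBE2K, an E2 that builds ubiquitin chains, differed by −0.51 ± 0.18 from Large White (limma adjusted p = 0.168) and by −0.41 ± 0.18 from Creole (limma adjusted p = 0.183). UBE2E3, close in sequence to UBE2E2, differed by −0.44 ± 0.15 from Creole (limma adjusted p = 0.0662). Of the 23 ubiquitin E2 genes 15 lay below 0 in F1 against Large White (median −0.04) and 18 in F1 against Creole (median −0.04), beside 4382 of 9681 and 4361 of 9681 named genes. Of the 26S subunits 25 of 29 lay above 0 in F1 against Large White (median 0.09). In F1 against Creole 17 of 29 did (58.6%, median 0.0175), near the 55.0% and 0.015 of all named genes, and the count ran from 15 (median 0.0045) without F1 HS 3 to 22 (0.0454) without F1 HS 5 and was 23 (0.0596) with the processed signal. No subunit was called in either comparison. Without F1 HS 5, 11 of 23 E2 genes lay below 0 in F1 against Creole, with a median of 0.0024, and 13 in F1 against Large White, with a median of −0.02. Other arrays moved the E2 medians the other way. Without CR TN 1 that of F1 against Creole was −0.0624, and without LW TN 2 that of F1 against Large White was −0.0703.

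Probe by probe, 5 of the 161 tested probes of all members were called between Large White and Creole (3.11%, against 6.53% of all probes tested), 2 between F1 and Large White (1.24%, against 1.43%) and 7 between F1 and Creole (4.35%, against 6.66%). The last included single probes of PSMB4, PSMD11 and UBE2L3, genes whose chosen probes were not called. Of the 6 members whose probes differed most in the LW minus CR difference, PSMC1 spanned 0.34 log2 units and PSMD13, a non-ATPase cap subunit, 0.26 (from −0.05 to 0.21 on 2 probes). The scaffold subunit PSMD1 spanned 0.22 on 8 probes, the ATPase PSMC2 0.22 on 2, PSME3, the nuclear PA28 activator, 0.21 on 2 and PSMB4 0.20 on 12. Over the 40 members with at least 2 tested probes, the median correlation between probes of a gene was 0.428 (residuals from the 6 group means, 33 arrays), and it was above 0.5 for 18 members. PSMB8 (3 probes, median r = 0.98) and PSMB9 (2 probes, r = 0.956) were among the highest, and the 2 probes of UBE2H, an E2, ran against each other (r = −0.463).

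Brightness is given as the level of a probe, so that the order below is one of probes and not of expression between genes. In the role lists the brightest and the dimmest chosen probes were PSMA6 (13.53) and PSMA3 (5.85) in the alpha ring, PSMB4 (14.80) and PSMB3 (10) in the beta ring, PSMB10 (13.12) and PSMB11 (6.66) among the inducible and thymus subunits, and PSMC1 (13.93) and PSMC2 (10.13) among the ATPases. They were PSMD13 (14.29) and PSMD3 (6.76) among the non-ATPases, PSMD9 (12.07) and PSMD10 (10.98) among the chaperones, PSME2 (13.14) and PSMF1 (6.55) among activators and inhibitor, and UBE2Q1 (14.89) and UBE2Z (5.33) among the ubiquitin E2 genes (mean log2 intensity over 33 arrays). UBE2F, which carries the ubiquitin-like protein NEDD8, was the dimmest in its list (10.47). PSMB11 is known as the catalytic subunit of the thymus.

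The spread between arrays of the same group differed widely between members. The residual SD around the 6 group means ran from 0.059 for PSMC6 to 0.590 for PSMB8, the inducible subunit that replaces PSMB5. PSMB8 ranged from 7.912 to 10.214 (median 8.55) in Large White, 8.002 to 10.166 (median 8.68) in Creole and 8.257 to 10.002 (median 9.12) in F1, and its 3 tested probes rose and fell together. No breed or temperature difference of PSMB8 was called, with 0.47 log2 units between F1 and Large White (limma adjusted p = 0.431), 0.42 between F1 and Creole (limma adjusted p = 0.359) and −0.04 between HS and TN.

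Between arrays of a group, the constitutive subunits varied together. The median correlation between pairs of 26S subunits was 0.315, that of the alpha ring 0.503, that of the ubiquitin E2 genes 0.367 and that of all members 0.197, against 0.00706 for all named genes (Pearson r of residuals from the 6 group means over 33 arrays, which share slides, as a description with no test). Each subunit's correlation with the mean of the others had a median of 0.615 and was above 0.5 for 18 of 29, highest for PSMC2 (0.87) and PSMA5 (0.832) and below 0 for PSMB3 (−0.145) and PSMC6 (−0.047). Among 9652 named genes outside the 26S list, the middle 90% had correlations with that mean from −0.495 to 0.647, so that many genes of other functions vary along with it. The subunit median of 0.615 lay within that range. With slide differences removed the median over the 29 subunits was 0.556. Some E2 genes lay among the subunits in this respect, with UBE2D3 at 0.821 and UBE2E1 at 0.754. Others did not, with UBE2V1 at 0.104, UBE2Z at −0.276 and UBE2H at −0.379.

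The inducible subunits differed among themselves in this respect. PSMB8 had a correlation of 0.306 with the 26S mean, and PSMB10 one of −0.211, below the lowest constitutive subunit (−0.145). PSMB9 had a correlation of −0.04 with the 26S mean and of 0.587 with the mean of 9 interferon and antigen presentation genes (Spearman's rho 0.727, r = 0.668 without the 2 arrays farthest from the median, 0.632 with slide differences removed). PSME2, the beta subunit of the PA28 activator, had −0.31 with the 26S mean and 0.571 with the interferon list (rho 0.472, 0.412 without 2 arrays, 0.695 with slide differences removed). PSME1 had 0.413 and PSMB10 0.343 with the interferon list (0.353 and 0.198 without 2 arrays), and PSMB8 0.238. PSMB11 had −0.314. Over 9672 other named genes the middle 90% lay between −0.297 and 0.331, so that PSMB9, PSME2, PSME1 and PSMB10 lay above that range and PSMB8 within it. The conjugating enzyme UBE2E2 (0.342) also lay above it, PSMB11 and UBE2CBP (−0.31) lay below it, and the other members lay within it. By construction, 5% of the other named genes lie beyond each end of the range. A place beyond it is therefore a description and no test. Without 2 arrays UBE2E2 had 0.271 and PSMB10 0.198. The range was computed over all 33 arrays, so it does not place these lower values.

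**Figure D5:**
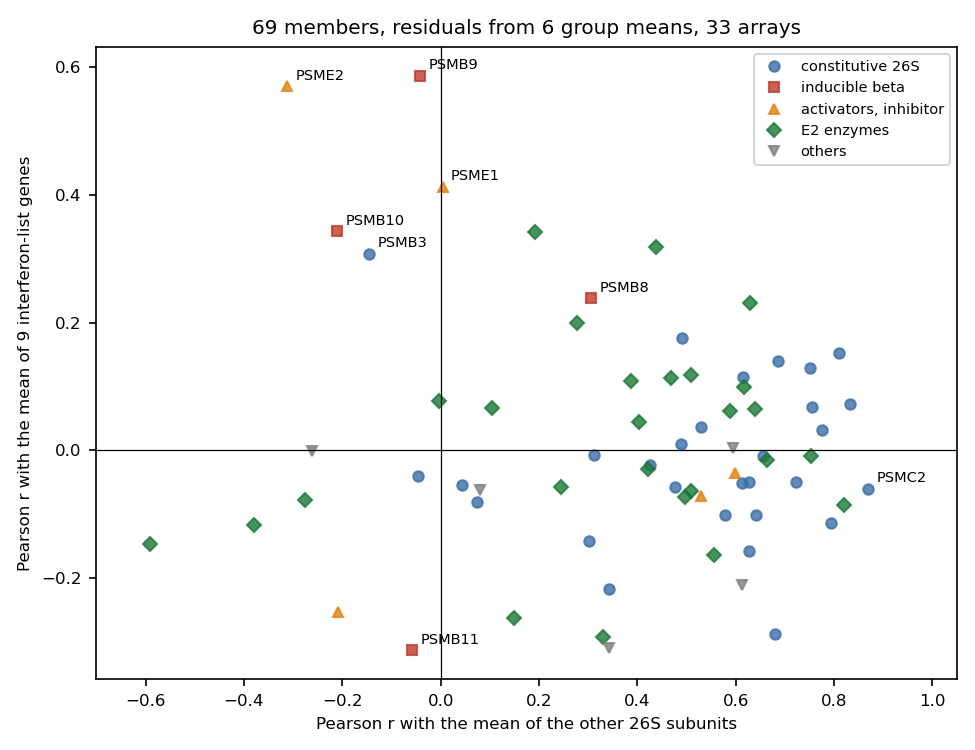
Pearson correlation of each of the 69 members with the mean of the other constitutive 26S subunits (x axis) and with the mean of 9 interferon-list genes (y axis), over residuals from the 6 group means on 33 arrays. PSMB9, PSME2, PSME1 and PSMB10 lie high on the y axis and near or left of 0 on the x axis, and most constitutive subunits (blue) lie to the right.

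None of PSMB8, PSMB9, PSMB10 and PSMB11 passed the test in a breed comparison. PSMB9 differed by −0.30 ± 0.13 between F1 and Large White (limma adjusted p = 0.266) and −0.29 ± 0.13 between F1 and Creole (limma adjusted p = 0.184). Among the 9 interferon and antigen presentation genes, B2M, the light chain of MHC class I, was higher in Large White than in Creole by 0.42 (limma adjusted p = 0.0033), whereas PSMB9 differed by 0.02 and PSMB8 by −0.06 in that comparison. Its part in the values of the inducible subunits was not tested.

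Slide left a clear mark on some members. Of the 69 members 8 had over 50% of their residual sum of squares between slides, with a median of 21.7% over all members, where 4 slide terms over 27 residual degrees of freedom would take 14.8% without any slide effect. PSMC3IP, a meiotic recombination protein that bears a PSM name because it binds PSMC3, had 82.4%. Its 3 arrays on slide 1 ranged from 6.80 to 7.01 and its 7 on slide 2 from 6.74 to 7.23, while those of slides 3 to 5 ranged from 7.46 to 8.12. PSMA4 (65.4%), UBE2Q1 (63.3%) and PSME3 (61.3%) followed. Every slide held arrays of all 3 breeds and both temperatures, and PSME3 was called higher in F1 than in Large White with slide as a fixed block, but not with slide as a random block.

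Of 29 other genes of the pathway that were looked up, 23 were measured. Between Large White and Creole 2 of 23 were called (8.70%, against 6.53% of all probes tested), both higher in Large White: UBA6, an alternative E1 enzyme, by 0.51 (limma adjusted p = 0.00628) and PSMG4, a chaperone of core assembly, by 0.38 (limma adjusted p = 0.0214). Between F1 and Creole 5 of 23 were called (21.7%, against 6.66% of all probes). UBA6 (0.42), PSMG4 (0.47) and UBA1, the main E1 enzyme (0.14), were higher in F1, and RPS27A, which encodes a ubiquitin fused to a ribosomal protein (−0.46), and the shuttle factor UBQLN2 (−0.30) were lower. Between F1 and Large White 1 of 23 was called (4.35%, against 1.43% of all probes), BIRC6, a giant enzyme with E2 and E3 activity (−0.33, limma adjusted p = 0.0358). None was called between HS and TN.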

How the data were processed

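The samples were pituitary glands of 33 pigs, 1 Agilent porcine array each with 1 colour. The scanner files, per the file headers, give an intensity for every spot with its local background, read with Agilent Feature Extraction 10.10.1.1 (submitters' processing notes) and not normalized between arrays. The authors also deposited log2 values of 45667 probes, quantile-normalized after quality control, with limma named in their notes. Here, the median pixel intensity was quantile-normalized without background correction, control spots and outlier spots were left out, log2 was taken and the spots of a probe were averaged. This differed from the deposited log2 values by a median of 0.0038. Probes had to be well above background on 75% or more of the arrays in 1 or more of the 6 groups, which left 47083 of 60305. The share of spots well above background was 73.5% to 82.2% per array, the median intensity 131 to 165 and the median background 20 to 47.5, and no spot was saturated. The number of arrays limits the precision.

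Differences were fitted with limma 3.58.1 (R 4.3.3) on all 33 arrays, with breed and temperature as fixed effects, or 1 mean per group for the differences within breeds and the interaction. All tests are two-sided with Benjamini-Hochberg adjustment across the 47083 probes (threshold 0.05). Random effects of pen, slaughter day and parents, part of the study's model, are absent from these fits since no label gave them. Each animal is 1 sample, but littermates count as independent, so the p-values take no account of kinship. The members and gene lists were chosen with earlier results of these data known. The genes named by rule were those called in HS against TN, a breed comparison or the interaction, the 5 with the smallest p in HS against TN, the brightest and dimmest of each role list, and the 6 whose probes differed most between Large White and Creole. Other members given with values, such as PSMB8, PSMB9, PSMC3IP, PSMC6, PSMA5, UBE2D3, UBE2E1, UBE2H, UBE2K, UBE2E3, PSMD7 and PSMD2, were chosen after their values were seen. The values of 1 gene named by the rule are not reported here. Correlations are over residuals from the 6 group means. For genes that are no members, the brightest kept probe was used. The fits were tested on simulated data, for which no values are given here. Alternatives were the deposited table, the processed signal, normexp correction with an offset of 50, other filters, slide as a block, array weights, another breed for LW HS 3, the mean over probes, no breed term and leaving out each array. All columns of the deposited table were mapped to a sample.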

Additional observations from a re-analysis of the deposited data

Results flagged for a closer look

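In 8 of 156 sets of arrays (26 named members in 6 groups) the highest or the lowest array stood apart from the rest by a Dixon test at 95%, which chance gives in about 1 of 20 sets. UBE2J1 was highest on array F1 TN 1 at 11.36, with the next of that group at 11.08, so the array farthest from the other F1 TN arrays lay toward the parent breeds. PSMB11 was highest on the same array, F1 TN 1, at 8.13 (next 6.85). PSMA2 was highest on LW TN 1 at 9.65 (next 9.44), an array of slide 1. UBE2G2 was highest on F1 HS 3 at 7.16 (next 6.64). PSMB4 was lowest on CR TN 4 at 14.68 (next 14.73). PSMD13 was highest on CR HS 4 at 14.56 (next 14.31). PSMD10 was lowest on LW TN 2 at 10.63 (next 10.93). PSME3 was lowest on F1 HS 5 at 10.95 (next 11.36). For 0 of 69 members did all HS arrays of 1 breed lie above and all HS arrays of another breed below the TN mean of their breed.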

How the results depend on the processing

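The number of members called between HS and TN, in the interaction and within each breed was 0 under all alternatives run and on leaving out each array. The 4 members called between Large White and Creole became 2 (PSMD9 and UBE2CBP) with the processed signal, and 3 to 4 were called when each array was left out. The 1 member called between F1 and Large White became 2 with slide as a fixed block (PSME3 and UBE2J1) and 4 with array weights (PSME3, UBE2E2, UBE2J1 and UBE2K), and the range on leaving out each array was 1 to 3, with 3 (UBE2E2, UBE2J1 and UBE2K) without F1 HS 3. Between F1 and Creole the range was 1 to 4, and UBE2J1 alone was called without F1 HS 1, F1 HS 2, F1 TN 2, F1 TN 4, F1 TN 6 or CR HS 6. The median correlation between members rose from 0.197 to 0.339 with the processed signal, and the cause was not tested. With LW HS 3 taken as Creole, PSMB3 lost its call between Large White and Creole (−0.5321, limma adjusted p = 0.0649). UBE2CBP lost its call between F1 and Creole in that setting (0.3574, limma adjusted p = 0.0852). Their differences in the main fit were −0.5325 and 0.3945. PSMC1 lost its call with the processed signal (−0.1393, limma adjusted p = 0.208) and with the mean over its probes (−0.0144). Leaving out single arrays ended the call of PSMB3 for CR HS 1, 2, 5 and 6, CR TN 1, 4 and 5, LW TN 2 to 5, LW HS 1, 4, 5 and 6, F1 HS 1 and F1 TN 4 to 6, that of UBE2E2 for F1 HS 1, 2 and 5, F1 TN 2, 4 and 6 and CR HS 5 and 6, and that of UBE2CBP in F1 against Creole for CR HS 1, 2 and 6, CR TN 1, 3, 4 and 5, F1 HS 1 to 4 and every F1 TN array. Over all probes, the 9 calls between HS and TN became 91 with slide as a fixed block, 58 with it as a random block, 23 with the processed signal, 15 with probes well above background on all arrays and 4 without the breed term. The 674 calls between F1 and Large White became 2441 with array weights, 426 with LW HS 3 as Creole and 403 with the mean over probes, the 3074 between Large White and Creole became 1842 with LW HS 3 as Creole, and the 3137 between F1 and Creole became 1834 with the mean over probes, a fit of 34022 genes in place of 47083 probes. The single genes followed and the median over all members between HS and TN kept their direction under all these settings. Medians of lists did not all do so, since that of the E2 genes in F1 against Creole turned from −0.04 to 0.0024 without F1 HS 5, and that of the 26S subunits within Large White, 0.0016, turned to −0.021 with array weights, was 0.0628 with the processed signal and lay between −0.0366 and 0.0358 on leaving out each array. With the processed signal, calls also ended for UBE2E2 (−0.3007, limma adjusted p = 0.0604) and PSMB3 (−0.5333, limma adjusted p = 0.0644). That of PSMB3 ended without the filter too (−0.5325, limma adjusted p = 0.0548). UBE2CBP in F1 against Creole lost its call with normexp (0.3159, limma adjusted p = 0.0501) and without the filter (0.3945, limma adjusted p = 0.0505). UBE2J1 lost both calls with the mean over its probes. The median HS minus TN difference of the members stayed between 0.02 and 0.06. UBE2Z was well above background on 12 arrays only, which limits what its values show.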
